A study of Mus musculus with 12 samples.

Results

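The enzymes that put the last sugar or sulfate on a glycan chain were followed in 12 mouse melanoma tumours. They were taken as the sialyltransferases (symbols starting with St3gal, St6gal or St8sia), the fucosyltransferases (Fut), the galactose 3-O-sulfotransferases (Gal3st) and the genes Abo, A4galt and Ggta1. The rule found 33 genes on 37 probe sets, out of 909 named genes and 1246 probe sets on a focused Affymetrix array. The brightest probe set stood for each gene, and 30 genes had no other. There were 19 sialyltransferases, 8 fucosyltransferases, 3 sulfotransferases and 3 genes of blood group type and alpha-galactose ends.

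The tumours came from Tm1N3, a melanoma line labelled as galectin-3 expressing, or Tm1G3, labelled as galectin-3 silenced. Each line was grown in wild-type mice and in Gal3 -/- mice, which lack galectin-3, and each of the 4 groups held 3 arrays. Per the series' design text the cells and mice were syngeneic, and galectin-3 was brought back into a silenced line with a coding plasmid; the age of the mice, and whether a line is a single clone, are not stated in the sources used here. The host deletion leaves the gene of the tumour cells in place, so RNA of whole tumours pools both sources. The labels do not say that replicates were separate animals, so p-values measure the spread between these samples.

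Sialic acid, fucose and sulfate are added in the Golgi to the ends of N-glycans, O-glycans and glycolipids, and usually stop the chain from growing further. These caps decide which lectins can bind: Siglecs need sialic acid, selectins need chains that carry both sialic acid and fucose, and galectins bind galactose-containing ends that some caps mask. In melanoma, sialylated gangliosides and polysialic acid are long known surface antigens.

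Arrays were alike, with pairwise correlations across probe sets from 0.976 to 0.998. Lgals3, the gene of galectin-3, lay on the log2 scale between 9.35 and 10.55 on the 6 Tm1N3 arrays and between 8.98 and 9.99 on the 6 Tm1G3 arrays. The lines overlapped, and the averaged difference of 0.46 ± 0.23 (SE) did not pass (limma, Benjamini-Hochberg adjusted p = 0.376). Its host difference, knockout minus wild-type, was -0.21 ± 0.23 (adjusted p = 0.852). Where its probe set lies relative to the deletion, the plasmid or a silencing sequence was not stated in the labels, and the lines are called by their names. Of the melanocyte markers listed, Kit and Mcam were measured, and Kit was lower (log2 difference -0.99 ± 0.15, SE; limma, adjusted p = 0.00379) and Mcam higher (0.66 ± 0.15; adjusted p = 0.0336) in Tm1N3 tumours. The rest of the 9 markers listed, among them the pigment genes Tyr, Dct, Pmel and Mlana, had no probe set matched by name.

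Averaged over hosts, the capping genes that differed between the tumour lines were St3gal3 and St6galnac6, lower in Tm1N3 tumours, and Fut11, higher. St6gal1, the enzyme of the alpha2,6-linked sialic acid of N-glycans, was lower by a similar amount and fell just short of the threshold. The 3 genes past the threshold were 9.09% of the 33, against 4.25% of all 1246 probe sets. Of these 3, only Fut11 still passed when the deposited values were quantile normalized again. St3gal3 passed in 7 of 12 fits with 1 array left out. The other 29 genes, among them all 6 of the St8sia family and the selectin ligand enzyme Fut7, did not pass. No capping gene passed in any comparison of knockout with wild-type hosts. Every difference below is a log2 difference, Tm1N3 minus Tm1G3 or knockout minus wild-type, every level is a log2 array level, groups are written WT_ or KO_ for the host followed by the line, and a call means a Benjamini-Hochberg adjusted p under 0.05 in limma over all 1246 probe sets.

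**Figure D1:**
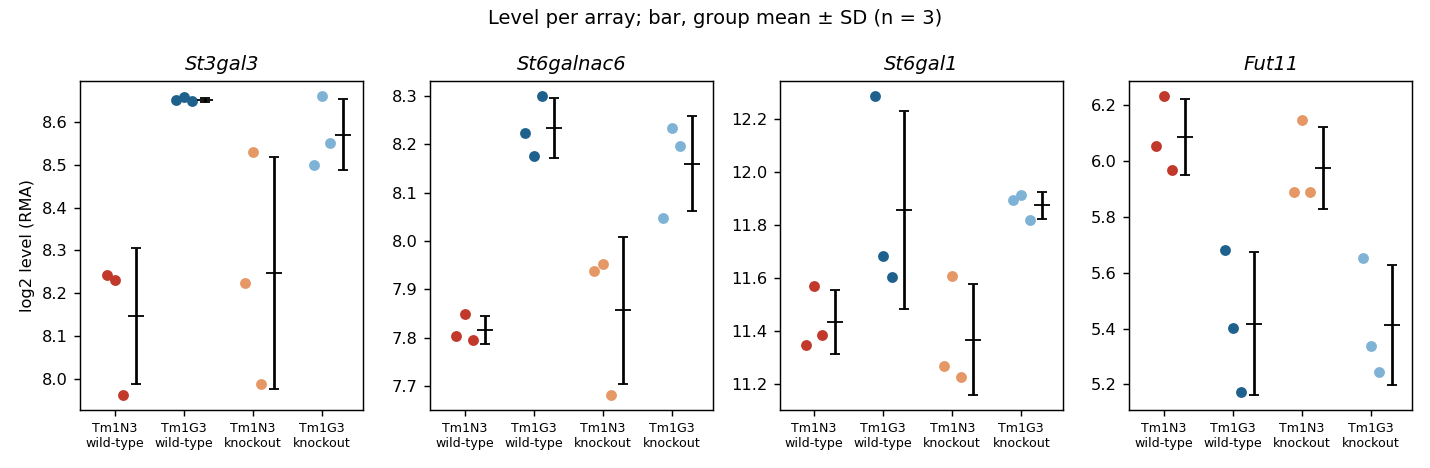
Log2 level of St3gal3, St6galnac6, St6gal1 and Fut11 on each array (points, 1 panel a gene with its own axis) by tumour line and host, with the mean ± SD of the 3 arrays beside them. The Tm1N3 and Tm1G3 arrays lie apart for St6galnac6 and Fut11, and overlap for St3gal3 through a single Tm1N3 array at 8.53 and for St6gal1 through a single Tm1N3 array at 11.61.

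Upstream sequence is shown for St3gal3 and Fut11, the called genes of opposite direction whose windows RefSeq gives clear of a neighbour's transcript in whole or in part. The windows end at the base before the transcript start, on GRCm38.p6, and lie at chr4:118134947-118135196 on the minus strand for St3gal3 and at chr14:20694853-20694967 on the plus strand for Fut11. They are written 5′ to 3′, and capitals mark matches to GGGCGG, a GC box, on either strand.
St3gal3: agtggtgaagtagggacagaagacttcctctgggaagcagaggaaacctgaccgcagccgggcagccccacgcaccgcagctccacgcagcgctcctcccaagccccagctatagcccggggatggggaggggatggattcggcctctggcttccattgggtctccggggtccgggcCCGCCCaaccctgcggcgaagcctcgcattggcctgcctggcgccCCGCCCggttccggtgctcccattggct
Fut11: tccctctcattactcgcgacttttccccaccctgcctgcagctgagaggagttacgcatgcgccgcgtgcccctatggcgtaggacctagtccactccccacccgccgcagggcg
St3gal3 held 2 matches, which began 73 and 28 bases before the start, and Fut11 none. A match stood in 32.7% of all 32851 RefSeq windows of 250 bases, and in 14 of 30 windows of the 21 capping genes that had one. The E-boxes CACGTG and CATGTG, the second also in its reverse complement, which the melanocyte factor MITF can bind, stood in neither sequence, against 6.02% and 12.3% of all windows. St3gal3 held 18 CpG dinucleotides, Fut11 11 and St6galnac6 2 in 250 bases, where the median over all windows was 6. The Fut11 count includes 135 bases inside the neighbouring gene Sec24c, which were left out of the printed sequence. The St6galnac6 window, not printed, lies in the end of St6galnac4. These are descriptions of sequence, and no measurement here bears on binding.

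The St3gal genes attach sialic acid in alpha2,3 linkage to galactose. St3gal3 acts mainly on galactose of N-acetyllactosamine chains, the end on which sialyl Lewis structures are built. Its levels in Tm1N3 tumours were 8.24, 8.23 and 7.96 in wild-type hosts and 8.22, 8.53 and 7.99 in knockout hosts. In Tm1G3 tumours they were 8.65, 8.66 and 8.65 in wild-type hosts and 8.50, 8.66 and 8.55 in knockout hosts. The Tm1G3 arrays were thus the higher, but replicate 2 of Tm1N3 tumours in knockout hosts reached 8.53, above the lowest Tm1G3 array. St3gal3 was 1.33-fold lower in Tm1N3 tumours (log2 difference -0.41 ± 0.09, SE; limma, adjusted p = 0.0235). The difference was -0.50 ± 0.12 in wild-type hosts, where the groups did not overlap, and -0.32 ± 0.12 in knockout hosts, where they did, and neither passed alone (limma, adjusted p = 0.0736 and 0.386). The averaged call was lost when the deposited values were quantile normalized again (-0.35; adjusted p = 0.0756) and in 5 of 12 fits with 1 array left out: WT_Tm1N3 replicate 3, WT_Tm1G3 replicates 2 and 3, and KO_Tm1G3 replicates 2 and 3 (adjusted p from 0.0533 to 0.0732).

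St3gal4, which shares the N-acetyllactosamine acceptor of St3gal3, stood in Tm1N3 tumours at 7.30, 7.61 and 7.33 with wild-type hosts and at 7.47, 7.58 and 7.37 with knockout hosts. Against these, Tm1G3 tumours gave 7.79, 7.60 and 7.74 with wild-type hosts and 7.54, 7.60 and 7.56 with knockout hosts. The lines overlapped in both hosts, and the difference of -0.19 ± 0.07 (SE) did not pass (limma, adjusted p = 0.149). Its probe set carries a suffix for probes shared between transcripts or similar sequences. So do those of St6galnac4, St8sia1, St8sia5, St8sia6, Fut2, Fut4 and Gal3st1, which with St3gal4 make 8 of the 33 genes. St3gal5, the synthase of ganglioside GM3 from which most other gangliosides are made, had Tm1N3 levels of 9.96, 10.19 and 9.90 in wild-type and 10.01, 10.33 and 10.02 in knockout hosts. Its Tm1G3 levels were 9.93, 10.03 and 9.91 in wild-type and 10.07, 10.21 and 9.99 in knockout hosts, so the lines lay on top of each other (0.04 ± 0.08; 95% interval -0.12 to 0.21). St3gal6 (-0.11 ± 0.08), and St3gal1 (-0.13 ± 0.10) and St3gal2 (0.04 ± 0.08), which sialylate the core O-glycan, did not pass. Of the 6 genes, 1 fell and 5 did not pass, where 4.25% of all probe sets were called. Their median was -0.12 against 0.00 for all probe sets.

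Of the alpha2,6 sialyltransferases, St6galnac6, which adds sialic acid to N-acetylgalactosamine or N-acetylglucosamine of gangliosides and related chains, was separated best. Its Tm1N3 levels were 7.80, 7.85 and 7.80 in wild-type hosts and 7.94, 7.95 and 7.68 in knockout hosts. Tm1G3 tumours gave 8.22, 8.18 and 8.30 in wild-type hosts and 8.05, 8.23 and 8.20 in knockout hosts. All 6 Tm1N3 arrays lay below all 6 Tm1G3 arrays. St6galnac6 was 1.28-fold lower in Tm1N3 tumours (-0.36 ± 0.06, SE; limma, adjusted p = 0.00604) and remained past the threshold whichever of the 12 arrays was dropped (adjusted p from 0.00623 to 0.0236), but not after quantile normalizing again (-0.27; adjusted p = 0.0689). In wild-type hosts alone it also passed (-0.42 ± 0.08; limma, adjusted p = 0.0484), a call kept in 3 of the 12 fits, those without KO_Tm1N3 replicate 2 or 3 or KO_Tm1G3 replicate 1. This call was also lost after quantile normalizing again, with median-centred arrays, with the trended robust prior, with only the 2 groups fitted and with the replicate number as a fixed block (limma, adjusted p from 0.0595 to 0.165), and kept with that number as a random block within each line (0.0430). In knockout hosts it did not pass (-0.30 ± 0.08; adjusted p = 0.142). The difference between these values was not beyond error (interaction 0.11 ± 0.12; limma, adjusted p = 0.996).

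St6gal1 caps N-acetyllactosamine ends of N-glycans with alpha2,6-linked sialic acid, a cap known to hinder galectin binding at that end. Tm1N3 tumours held 11.35, 11.57 and 11.38 in wild-type hosts and 11.27, 11.61 and 11.23 in knockout hosts. In Tm1G3 tumours the values were 12.29, 11.68 and 11.60 in wild-type hosts and 11.89, 11.91 and 11.82 in knockout hosts. Within each host the Tm1G3 arrays lay above the Tm1N3 arrays, and across hosts a single pair crossed, at 11.61 against 11.60. The averaged difference was -0.47 ± 0.12 (SE), 1.38-fold, with a 95% interval from -0.73 to -0.21, and it missed the threshold (limma, adjusted p = 0.0552). It passed in 3 of 12 fits with 1 array left out, those without WT_Tm1G3 replicate 1, WT_Tm1G3 replicate 3 or KO_Tm1N3 replicate 2, with the dimmest 25% of probe sets left out (adjusted p = 0.0458) and with a prior that follows the level (0.0430). Over the 12 left-out fits and the other alternatives the difference ran from -0.53 to -0.36. WT_Tm1G3 replicate 1, at 12.29, was the highest array, and without it the difference was -0.36 (adjusted p = 0.0299). The same array was also the highest for St3gal2 (6.73), St3gal4 (7.79), St6galnac4 (6.05), Fut2 (5.30), Fut4 (5.00), Gal3st3 (5.22) and Ggta1 (6.56). For Gal3st3 the lead was small, 5.217 against 5.214 on KO_Tm1G3 replicate 2. How many of all probe sets were highest on this array was not counted. It was the highest for the summed level of the 2 neutrophil markers, at 7.47 against at most 6.45 on the other 11 arrays. For the summed T and NK cell markers and for the B cell marker it was the lowest, at 6.35 and 5.70. Its macrophage and monocyte sum (10.43) ranked 3 of 12. The endothelial (10.68) and the fibroblast and matrix (10.12) sums each ranked 5, and the melanocyte sum (10.31) ranked 7.

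The other St6galnac genes lay near 0. St6galnac1, the sialyl-Tn synthase of mucin O-glycans, had Tm1N3 levels of 3.88, 3.95 and 3.81 in wild-type and 3.81, 3.88 and 3.85 in knockout hosts. Its Tm1G3 levels of 3.87, 3.97 and 4.05 in wild-type and 3.78, 3.79 and 3.93 in knockout hosts covered the same range (-0.04 ± 0.05, SE). St6galnac2 (0.00 ± 0.05), St6galnac3 (-0.04 ± 0.07), St6galnac4 (-0.07 ± 0.09) and St6galnac5 (0.03 ± 0.05) did not pass. St6galnac4 is the direct neighbour of St6galnac6 on mouse chromosome 2 in RefSeq, and ends where St6galnac6 begins. Of the 7 genes 1 fell and 6 did not pass, against 4.25% of all probe sets called, with a median of -0.04. St6galnac1, St6galnac2 and St6galnac5 were in the dimmest 25% of probe sets, below a mean level of 4.22, where real differences may be compressed.

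The St8sia genes extend sialic acid with further sialic acid, as in ganglioside GD3 (St8sia1) and polysialic acid (St8sia2 and St8sia4). None of the 6 passed, and their averaged line differences ran from -0.10 to 0.05 with a median of 0.00. St8sia5, which acts on gangliosides, had Tm1N3 levels of 5.79, 5.87 and 5.94 in wild-type and 5.89, 5.84 and 5.78 in knockout hosts, and Tm1G3 levels of 5.87, 5.95 and 5.95 in wild-type and 5.96, 5.84 and 5.89 in knockout hosts (-0.06 ± 0.04, SE). St8sia6, which adds disialic acid to O-glycans, was among the most variable genes, with Tm1N3 levels of 4.57, 4.32 and 4.58 in wild-type and 3.93, 4.43 and 4.66 in knockout hosts. Its Tm1G3 levels were 4.75, 4.40 and 4.28 in wild-type and 4.96, 4.33 and 4.34 in knockout hosts, a spread within each group larger than the difference of -0.10 ± 0.15. St8sia1 (0.03 ± 0.04) and St8sia3 (0.00 ± 0.04) were in the dimmest 25%, and St8sia2 (0.00 ± 0.05) and St8sia4 (0.05 ± 0.15) did not pass.

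Fut11, whose upstream window held no GC box match, encodes a member of the alpha1,3-fucosyltransferase family by sequence, as does Fut10. In Tm1N3 tumours Fut11 stood at 6.06, 6.23 and 5.97 with wild-type hosts and at 5.89, 6.15 and 5.89 with knockout hosts. In Tm1G3 tumours it was at 5.68, 5.40 and 5.17 in wild-type and at 5.65, 5.34 and 5.25 in knockout hosts. All 6 Tm1N3 arrays lay above all 6 Tm1G3 arrays, with a gap from 5.68 to 5.89. Fut11 was 1.53-fold higher in Tm1N3 tumours (0.61 ± 0.10, SE; limma, adjusted p = 0.00771), and remained past the threshold whichever array was dropped (adjusted p from 0.00593 to 0.0295). In wild-type hosts the difference was 0.67 ± 0.15 (limma, adjusted p = 0.0565) and in knockout hosts 0.56 ± 0.15 (adjusted p = 0.117). The wild-type difference passed once the replicate number entered as a random block within each line (limma, adjusted p = 0.0430) or as a fixed block over all groups. It also passed in 2 of 12 fits with 1 array left out, those without WT_Tm1G3 replicate 1 or KO_Tm1G3 replicate 1.

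Fut10 went the other way without passing. Its brightest probe set stood in Tm1N3 tumours at 6.68, 7.01 and 6.57 with wild-type hosts and at 6.68, 7.07 and 6.58 with knockout hosts. Its Tm1G3 levels were 6.93, 6.86 and 6.71 with wild-type hosts and 7.14, 7.36 and 7.08 with knockout hosts. The arrays of the 2 lines overlapped in wild-type hosts and lay apart in knockout hosts (-0.08 ± 0.15 and -0.42 ± 0.15, SE). The averaged difference was -0.25 ± 0.10 (limma, adjusted p = 0.259), and the other probe set of the gene gave -0.16 ± 0.09 (adjusted p = 0.482).

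The remaining fucosyltransferases did not differ detectably. Fut8, the core fucosyltransferase of N-glycans, was at 0.23 ± 0.12 (SE; limma, adjusted p = 0.376). The selectin ligand enzyme Fut7 was at -0.05 ± 0.05 and its Lewis x relatives Fut4 and Fut9 at 0.01 ± 0.04 and 0.09 ± 0.04. Fut1 and Fut2, which make the H antigen, were at 0.00 ± 0.05 and -0.02 ± 0.08. Fut1 and Fut9 were in the dimmest 25%. The other probe sets of Fut4 (-0.01 each) and Fut2 (0.03) did not pass either. Fut4 and Fut2 were read on probe sets with the suffix for shared probes, at mean levels of 4.89 and 5.00. Their probe sets without it were dimmer, at 2.92 and 4.05. Of the 8 fucosyltransferases 1 rose and 7 did not pass, against 4.25% of all probe sets called, with a median of 0.00.

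The sulfotransferase Gal3st1, which makes sulfatide, had Tm1N3 levels of 4.82, 4.86 and 4.82 in wild-type and 4.81, 4.76 and 4.79 in knockout hosts, and Tm1G3 levels of 4.83, 4.91 and 4.84 in wild-type and 4.83, 4.89 and 5.02 in knockout hosts (-0.07 ± 0.04, SE). Gal3st2, which sulfates galactose of glycoprotein chains and was in the dimmest 25%, had 3.85, 3.75 and 3.94 against 3.93, 3.71 and 3.76 in wild-type hosts, Tm1N3 first. In knockout hosts it had 3.67, 3.89 and 3.88 against 3.53, 3.57 and 3.76 (averaged 0.12 ± 0.07). Gal3st3, a related enzyme, was at -0.02 ± 0.06, and none of the 3 passed.

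Abo, the blood group A and B transferase, had, with wild-type hosts, 4.39, 4.26 and 4.38 in Tm1N3 against 4.17, 4.17 and 4.14 in Tm1G3 tumours. With knockout hosts the values were 4.35, 4.25 and 4.15 against 4.01, 4.18 and 4.19. The lines lay apart in wild-type hosts and overlapped in knockout hosts, and the averaged difference of 0.15 ± 0.05 (SE) did not pass (limma, adjusted p = 0.146). Abo was dim, with a mean level of 4.220, just above the 4.216 that bounds the dimmest 25% of probe sets. Ggta1, which makes the alpha-galactose end of mouse glycans, had 6.14, 5.81 and 6.09 against 6.56, 5.79 and 6.03 in wild-type hosts, Tm1N3 first, and 5.62, 5.90 and 6.45 against 6.48, 5.93 and 5.85 in knockout hosts. Its arrays were spread within every group, and the difference was -0.11 ± 0.18. A4galt, the synthase of the glycolipid Gb3, was at 0.02 ± 0.07.

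**Figure D2:**
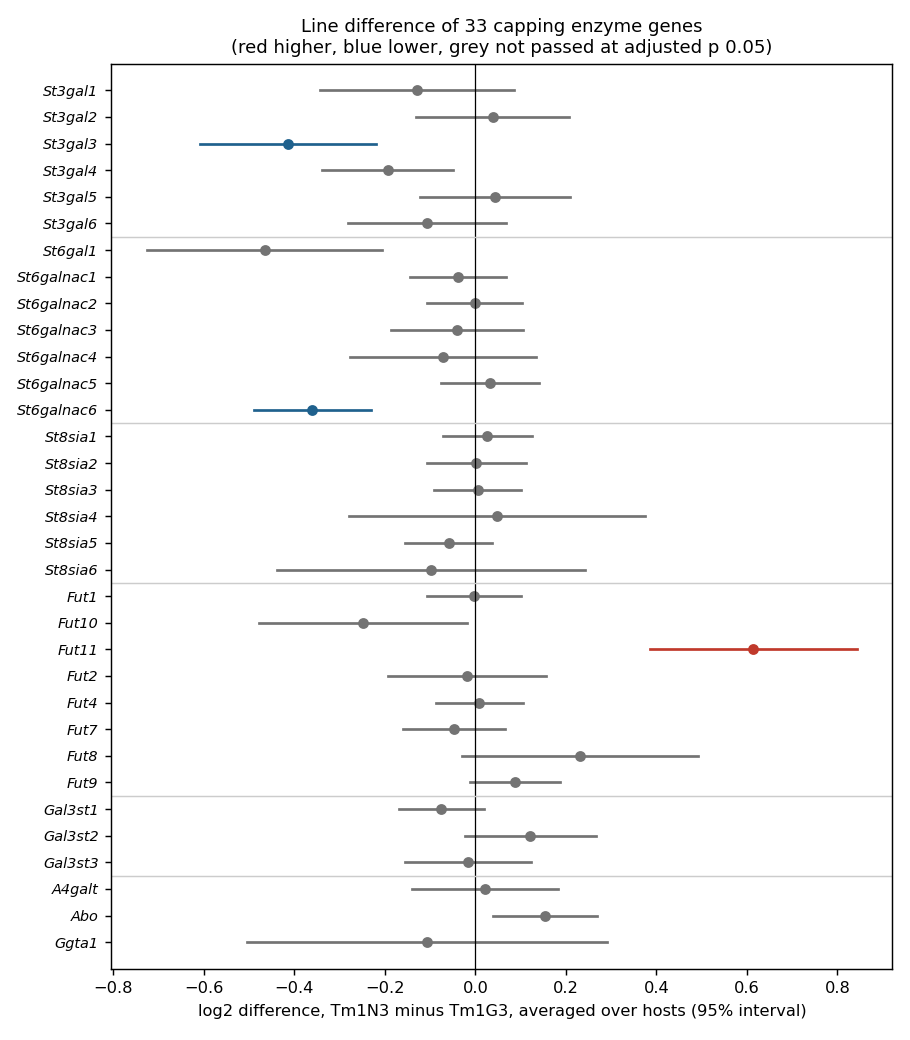
Averaged line difference (log2, Tm1N3 minus Tm1G3) of the 33 genes with its 95% interval from limma, in order of family, red for higher, blue for lower and grey for not passed. Fut11 at 0.61, St3gal3 at -0.41 and St6galnac6 at -0.36 are coloured, and St6gal1 at -0.47 is grey with a wide interval.

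Counted together, 3 of 33 capping genes passed in the averaged comparison, 1 higher and 2 lower, or 9.09% against 4.25% of all probe sets (1.28% higher and 2.97% lower). An unadjusted p under 0.05 was reached by 7 (21.2%) against 16.4% of all probe sets, and the 6 arrays of a line lay apart from those of the other for 2 (6.06%) against 3.29%. The members' median was -0.02 and that of all probe sets 0.00. In wild-type hosts 1 of 33 passed against 0.883% of probe sets, 6 (18.2%) had an unadjusted p under 0.05 against 13.1%, and groups did not overlap for 5 (15.2%) against 16.9%. In knockout hosts 0 passed against 0.722% of probe sets in limma, 5 (15.2%) had an unadjusted p under 0.05 against 9.47%, and groups did not overlap for 7 (21.2%) against 13.7%. The differences had the same sign in both hosts for 20 genes, 60.6% against 61.2% of all probe sets. In the averaged comparison the 95% interval lay within 0.5 of 0 on the log2 scale for 29 genes, and reached further for St3gal3, St6gal1, Fut11 and Ggta1.

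Kit and Mcam moved with the tumour line, as given above, and so did the endothelial marker Icam2 (-0.40 ± 0.08, SE; limma, adjusted p = 0.0215) and the matrix gene Fbln5 (0.76 ± 0.12; adjusted p = 0.00379). The other 4 endothelial and 4 fibroblast and matrix markers did not pass. Of 6 macrophage and monocyte markers measured (13 listed), 5 had values below 0 and none passed, with a median difference of -0.29. The log2 of their summed level ran, with wild-type hosts, from 9.54 to 10.54 in Tm1N3 and from 9.67 to 10.43 in Tm1G3 tumours, and with knockout hosts from 8.93 to 10.77 and from 9.81 to 10.24, so the lines overlapped. None of the 5 T and NK cell markers measured (16 listed), the 2 neutrophil markers (8 listed) or the B cell marker Cd22 (6 listed) passed. Their summed levels ran from 6.35 to 6.80, from 5.99 to 7.47 and from 5.70 to 6.11 over the 12 arrays. The neutrophil value of 7.47 belonged to WT_Tm1G3 replicate 1, and the other 11 arrays lay at 6.45 or below. Over the 12 arrays the 5 endothelial markers (12 listed) together ran from 10.04 to 11.04 and the 5 fibroblast and matrix markers (12 listed) from 8.70 to 10.62. The part of any of these cells in the St3gal3, St6galnac6, St6gal1 and Fut11 differences was not tested, and in whole tumours fewer cells of a type and less RNA per cell cannot be told apart.

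**Figure D3:**
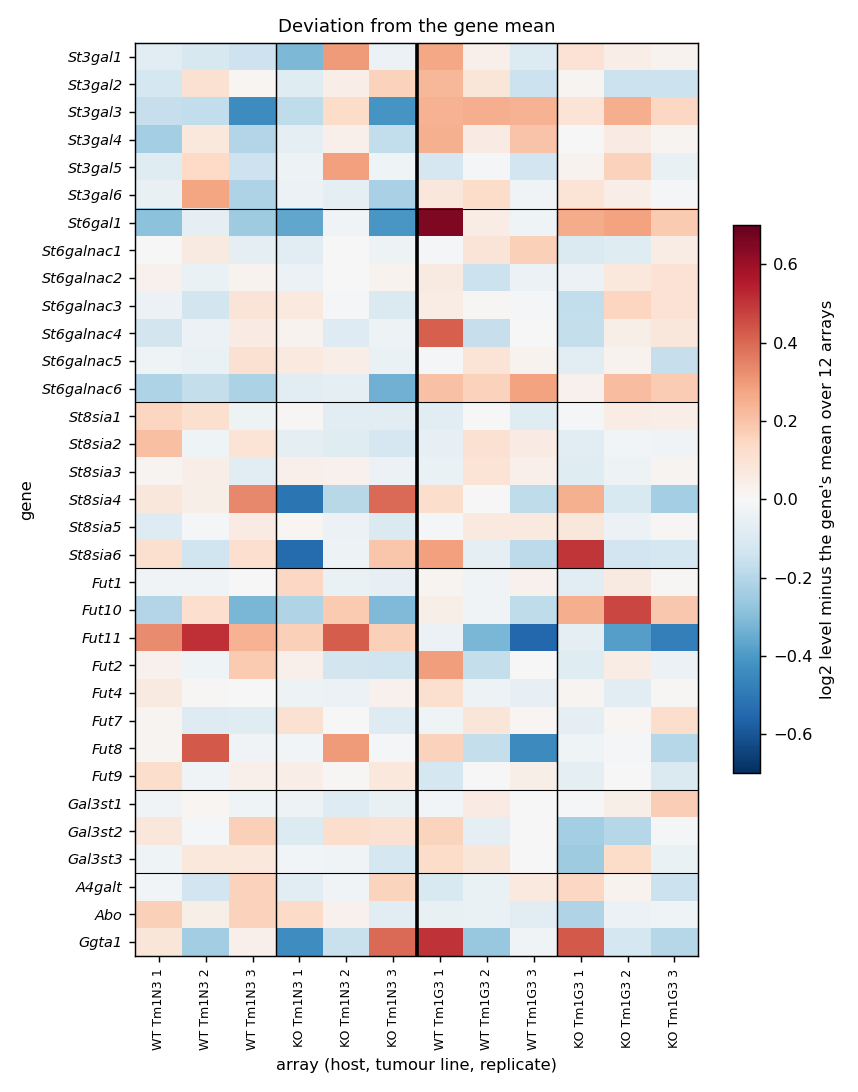
Deviation of each array's log2 level from the gene's mean over the 12 arrays, for the 33 genes in rows by family and the arrays in columns by line and host (red above, blue below the mean). The Tm1N3 arrays are on the left of the thick line; St6galnac6 and Fut11 change colour there, while Ggta1, St8sia4 and St8sia6 vary between arrays of a group.

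Within groups the capping genes were as steady as other probe sets, with a median SD of 0.11 against 0.12. The most variable were Ggta1 (SD 0.35), St8sia6 (0.30) and St8sia4 (0.28), chosen here after their values were seen. St8sia4, a polysialic acid synthase, had Tm1N3 levels of 6.82, 6.78 and 7.08 in wild-type and 6.23, 6.54 and 7.13 in knockout hosts. Its Tm1G3 levels were 6.86, 6.74 and 6.56 in wild-type and 6.99, 6.63 and 6.50 in knockout hosts. All 3 genes were lowest on KO_Tm1N3 replicate 1, and high on KO_Tm1N3 replicate 3 and KO_Tm1G3 replicate 1. Summed macrophage markers were lowest on the first of these arrays, at 8.93, highest on the second of them, at 10.77, and 10.24 on the last. Fibroblast and matrix markers gave 8.70, their lowest, 10.62, their highest, and 10.24 on the same arrays in that order. Endothelial markers gave 10.04, their lowest, 10.76, and 11.04, their highest. Neutrophil markers were also lowest on KO_Tm1N3 replicate 1, at 5.99. These arrays too were picked after the values were seen, and others differed. On WT_Tm1G3 replicate 3, macrophage markers (10.30) and fibroblast and matrix markers (10.19) each ranked 4 of 12. St8sia4 stood there at 6.56 and St8sia6 at 4.28. WT_Tm1N3 replicate 3, with macrophage markers at 10.54, had St8sia4 at 7.08. Ggta1 was highest on WT_Tm1G3 replicate 1, at 6.56. The part of any of these cells in this spread was not tested.

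Setting knockout against wild-type hosts compares host genotypes. Lgals3 itself did not pass between hosts, as given above, and its mean level in KO_Tm1G3 tumours was 9.31. In Tm1N3 tumours, in Tm1G3 tumours and in their average, 0 of 33 capping genes and 0% of 1246 probe sets passed in limma, and the same count of 0 capping genes was found under every alternative run. An unadjusted p under 0.05 was reached by 1 capping gene in each comparison (3.03%), against 4.33%, 6.18% and 6.26% of all probe sets. Groups did not overlap for 2 genes in Tm1N3 tumours (St8sia2 and Gal3st1, against 7.62% of probe sets), 1 in Tm1G3 tumours (Fut10, against 12.4%) and 0 in the average (against 0.562%). Averaged over lines, the 95% interval of all 33 genes lay within 0.5 of 0 on the log2 scale. The median half-width of these intervals was 0.14.

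The gene with the smallest p in Tm1N3 tumours and in the average was St8sia2, a polysialic acid synthase known from neural development. St8sia2 was dim, with a mean level of 4.242, just above the 4.216 that bounds the dimmest 25% of probe sets. Its values across groups follow. Its Tm1N3 levels were 4.45, 4.21 and 4.34 in wild-type and 4.17, 4.16 and 4.13 in knockout hosts, which did not overlap, and its Tm1G3 levels were 4.19, 4.35 and 4.30 against 4.17, 4.22 and 4.22, which did. The difference was -0.18 ± 0.07 (SE) in Tm1N3 tumours (limma, adjusted p = 1.00) and -0.07 ± 0.07 in Tm1G3 tumours. In Tm1G3 tumours the smallest p belonged to Fut10, at 0.36 ± 0.15 (limma, adjusted p = 0.752), where the groups lay apart; its other probe set gave 0.13 ± 0.13 and overlapping groups. Its Tm1N3 value was 0.02 ± 0.15, and the interaction of -0.34 ± 0.21 did not pass (adjusted p = 0.996).

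By family, the smallest p over the host comparisons otherwise belonged to St3gal5 (0.12 ± 0.08, SE, averaged), St6galnac1 (-0.13 ± 0.07 in Tm1G3 tumours), Gal3st2 (-0.18 ± 0.09 in Tm1G3 tumours) and Abo (-0.09 ± 0.07 in Tm1N3 tumours). None of these passed (limma, adjusted p from 0.751 to 1.00). The genes leading the line comparison did not pass between hosts on average: St3gal3 was at 0.01 ± 0.09, St6galnac6 at -0.02 ± 0.06, St6gal1 at -0.02 ± 0.12 and Fut11 at -0.06 ± 0.10, with 95% intervals reaching at most -0.29 and 0.24. The interaction of line and host passed for 0 of 33 capping genes and 0% of probe sets in limma. An unadjusted p under 0.05 was reached by St8sia1 (1 gene, 3.03% against 2.81%), at -0.21 ± 0.09 on a dim probe set (adjusted p = 0.996).

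**Figure D4:**
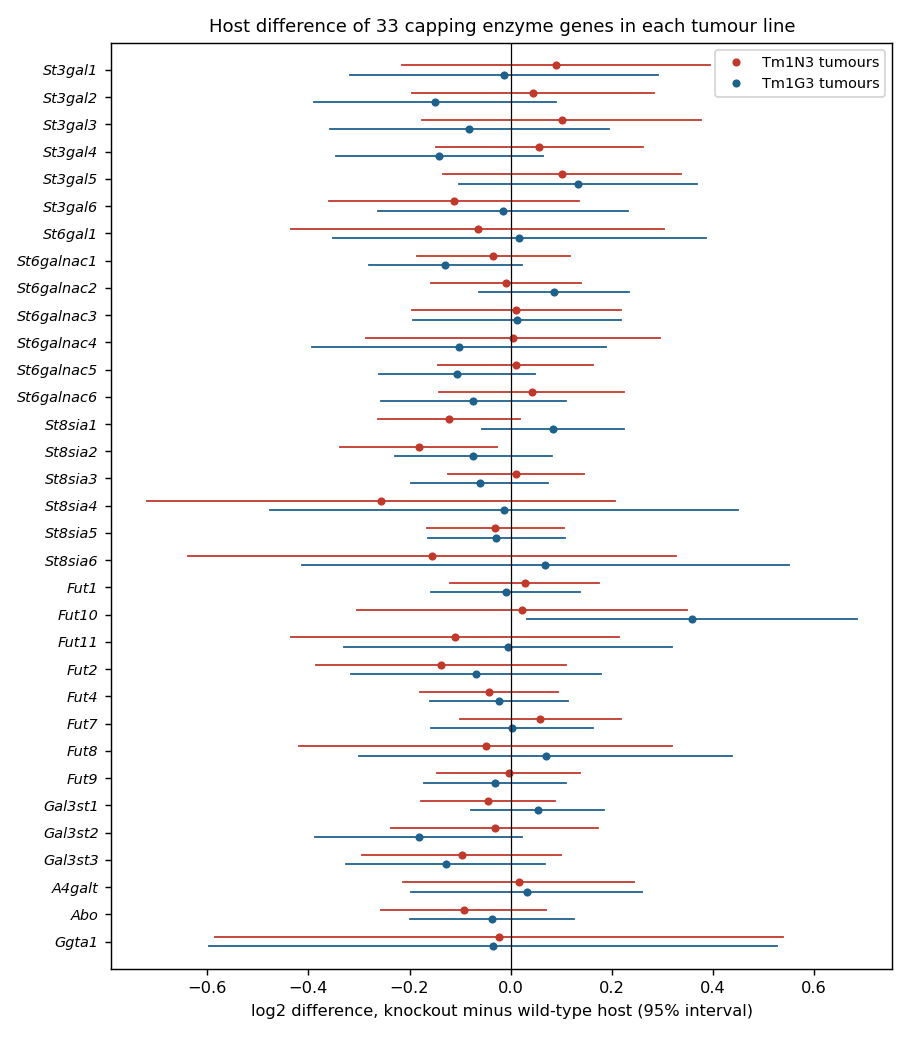
Host difference (log2, knockout minus wild-type) of the 33 genes with its 95% interval, red in Tm1N3 and blue in Tm1G3 tumours. The intervals cross 0 except for St8sia2 in Tm1N3 tumours at -0.18 and Fut10 in Tm1G3 tumours at 0.36, neither of which passed after adjustment.

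The genes that supply, remove or present these caps gave few calls in the averaged line comparison. Of 10 measured genes of 14 listed for sialic acid supply and removal none passed; Gne, the enzyme that starts sialic acid synthesis, was at -0.29 ± 0.08 (SE; limma, adjusted p = 0.0598) and the lysosomal sialidase gene Neu1 at 0.21 ± 0.08. Of 7 of 10 genes listed for fucose supply and removal none passed; Gfus, which makes GDP-fucose, was at -0.28 ± 0.11, and the protein fucosyltransferase Pofut2 at -0.07 ± 0.07. Of 18 of 21 listed for sulfate supply and other capping transferases none passed; the sulfate donor transporter Slc35b3 was at 0.28 ± 0.10 and Chst10, which makes the HNK-1 epitope, at -0.20 ± 0.09. Medians of these lists were -0.02, -0.04 and 0.01, against 0.00 for all probe sets.

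Of 33 measured genes (35 listed) that build the chains to be capped, 1 rose, 4 fell and 28 did not pass, or 15.2% called against 4.25% of all probe sets, with a median of 0.01. B3galt4, which extends gangliosides, rose (0.36 ± 0.05, SE) and passed in wild-type and in knockout hosts alone (0.37 and 0.34; limma, adjusted p = 0.0302 and 0.0472). B4galt4 (-0.57 ± 0.11) and B3galt5 (-0.46 ± 0.10), which add the galactose that sialyltransferases use, fell, as did B3gnt3 (-0.27 ± 0.06), which extends O-glycans, and Mgat3 (-0.40 ± 0.06), which bisects N-glycans and passed in wild-type hosts too (limma, adjusted p from 0.00272 to 0.0300). Of 25 measured genes (26 listed) that read or carry sialylated and fucosylated ends, 1 rose and 24 did not pass, and the 4% called lay near the 4.25% of all probe sets. Podxl2, a sialomucin that presents selectin ligands, rose (0.66 ± 0.13; adjusted p = 0.0211), and the lectin gene Cd209e was at 0.15 ± 0.05 without passing.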

How the data were processed

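Per the labels' protocols, biotin-labelled cRNA of 12 tumours went onto Affymetrix arrays. The authors deposited log2 values; the submitters' processing notes name RMA without a version. Their medians ran from 5.51 to 5.60 and they were used as deposited. No scanner files were used, so signal over background is unknown. Probe sets were named by unversioned RefSeq accession (963 of 1246). All probe sets and 12 arrays entered 1 fit of 4 group means with limma 3.58.1 in R 4.3.3 (8 residual and 2.39 prior degrees of freedom), giving 7 comparisons with Benjamini-Hochberg adjustment at 0.05; the procedure was tested on simulated data.

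The members and gene lists were chosen with earlier results of these data known. Given with every array's value are members past the threshold in any comparison and, in each family, the 2 with the smallest p in the averaged line comparison and the 1 with the smallest in the host comparisons; from further lists, those past the threshold and the 2 smallest.

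Deviations of same-numbered arrays from their group means correlated between hosts, from 0.184 to 0.752 in Tm1N3 and from 0.249 to 0.308 in Tm1G3 tumours. All lay over 0.1, the bound set for a pairing, but what a number marks is not in the labels. Sample titles carry a further number, which differs on every array and rises with the replicate number within each group. No label ties same-numbered arrays of different groups together. Between lines the numbers did not pair (-0.660 to 0.544). The main fit held no replicate block, so its errors, intervals and p-values do not use this correlation between hosts. Replicate blocks were run only as alternatives. Alternatives were a second quantile normalization, median centring, leaving out the dimmest 25% of probe sets, fitting only the groups compared, a trended robust prior, replicate blocks, the mean of a gene's probe sets and leaving out each array. Upstream sequences are from RefSeq, GRCm38.p6.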

Additional observations from a re-analysis of the deposited data

How the results depend on the processing

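The averaged count of 3 capping genes became 1, Fut11, after quantile normalizing again. The wild-type host count of 1 became 0 after quantile normalizing again, with arrays centred on their medians, with the trended robust prior and with only the 2 groups fitted, and 2 with the replicate number as a random replicate block inside each line; it ran from 0 to 2 with 1 array left out, falling to 0 without any Tm1N3 array of a wild-type host, WT_Tm1G3 replicate 2 or 3, KO_Tm1N3 replicate 1 or KO_Tm1G3 replicate 2 or 3, and rising to 2 without KO_Tm1N3 replicate 2 or 3 or KO_Tm1G3 replicate 1. With the number as a fixed replicate block over all groups it stayed at 1, but the gene was Fut11 (limma, adjusted p = 0.0432) in place of St6galnac6 (0.0697). The blocks changed no other call of a capping gene given above. The cause of these changes was not tested. Directions turned for values near 0: the averaged line difference of St8sia2 became -0.0109 after quantile normalizing again. With 1 array left out it ran from -0.0270 to 0.0335 for St8sia2, from -0.0095 (without KO_Tm1N3 replicate 2) to 0.0729 for St3gal5, from -0.2219 to 0.0019 (without WT_Tm1G3 replicate 1) for Ggta1 and from -0.1775 to 0.0073 (without KO_Tm1G3 replicate 1) for St8sia6. Of 560 recomputed gene values 518 kept direction and side of the threshold, 21 lost and 12 gained the threshold and 9 turned.

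Over all probe sets, the count of 11 in wild-type hosts became 6 with centred arrays and 3 with only the 2 groups fitted, and ran from 2 (without WT_Tm1G3 replicate 3) to 21 (without KO_Tm1N3 replicate 3) with 1 array left out. The count of 9 in knockout hosts became 4 with only the 2 groups fitted, 6 with the random replicate block, and 5 without KO_Tm1G3 replicate 1 or 2. The averaged count of 53 became 32 without KO_Tm1G3 replicate 2 and 40 with the random block.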
